A study of Mus musculus with 7 samples.

Results

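The BMP and TGF-beta pathway genes described here are 41 genes chosen by name for their place in the pathway, namely 13 ligands, 10 receptors, 5 extracellular antagonists, 8 Smads, 4 Id genes and the protease gene *Bmp1*. All 41 were found by symbol among the 38124 genes of the deposited count table. In this pathway, secreted ligands of the TGF-beta superfamily bring together type I and type II receptor kinases, and the activated type I receptor phosphorylates receptor-regulated Smads, which join Smad4 and enter the nucleus. BMPs act through Smad1, Smad5 and Smad9 and switch on the Id genes, whereas TGF-beta and activin act through Smad2 and Smad3. In the developing forebrain, BMPs from the dorsal midline pattern the telencephalon, and later BMP signalling is known to favour astrocyte over neuron and oligodendrocyte fates.

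The RNA came from RFP-positive cells sorted from the neocortex of heterozygous *Tis21*-CreERT2 mouse embryos, electroporated in utero at E13.5 and collected at E15.5, 48 hr later. The mothers of both groups received tamoxifen, which activates the Cre recombinase placed in the *Tis21* locus, so that recombination is limited to cells that express *Tis21* (apical radial glia that generate basal progenitors, and their progeny). The control construct carries a floxed GFP cassette followed by nuclear RFP, and the conditional Sox9 construct carries in addition the Sox9 coding sequence between that cassette and RFP. Only the gate of highest RFP intensity (High RFP) was analysed, and its libraries numbered 3 for the control construct (Control 1, 2 and 4) and 4 for the Sox9 construct (Sox9 1 to 4). Each library was made from cells of pooled cortices from several embryos and mothers, and the labels call each a biological replicate. P-values therefore measure the spread between pools.

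Total counts per library lay between 10465562 and 12907778 for the controls and between 4429704 and 10520214 for the Sox9-labelled libraries. Levels are in CPM, or counts relative to the size of the library after its correction for composition by the TMM method. *Sox9* mRNA itself was measured at 34.6, 89.2 and 67.9 CPM in Control 1, 2 and 4 and at 50.8, 41.1, 31.0 and 37.1 CPM in Sox9 1 to 4. The groups overlapped, and the log2 fold change was -0.68 (adjusted p = 0.0493, edgeR's quasi-likelihood test), so the label Sox9 was not matched by a higher level of this gene, and every direction below follows the labels. The construct carries only the Sox9 coding sequence, and whether its reads were counted on the mouse gene is not given in the sources used here. The labels name the cells neural progenitors. The neuron markers were at 42.3 to 3729 CPM per kilobase of exon, the radial glia markers at 2.37 to 231 and the basal progenitor markers at 3.82 to 57.6.

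Among the 38 members tested, 5 rose in the Sox9-labelled libraries and 1 fell at an adjusted p-value under 0.01. The members that rose were the ligand genes *Bmp4*, *Bmp6* and *Tgfb1*, the co-receptor gene *Tgfbr3* and the inhibitory Smad gene *Smad6*, by 1.89 to 3.11 on the log2 scale. The member that fell was *Fstl1*, which encodes a secreted follistatin-like glycoprotein, by 1.08 on the log2 scale. Over all 16522 genes tested, 11.3% rose and 3.43% fell, and the corresponding shares of the members tested were 13.2% and 2.63%, near that background. The split between higher and lower calls over all genes moved with the processing, from 1862 and 567 with TMM to 2442 and 224 with library totals alone, and to 363 and 284 with cyclic loess scaling and limma-trend, which changes both the scaling and the test. DESeq2 gave 2074 and 1421, edgeR with no filter on low counts 2661 and 1452, and leaving out 1 library 827 to 1590 higher and 208 to 475 lower (827 and 208 without Control 2), so the background shares rest on the processing too. The median log2 fold change of the members tested was -0.088, beside -0.0031 for all genes tested, with 17 members above 0 and 21 below. At an unadjusted p-value under 0.05, 11 members (28.9%) were higher and 4 (10.5%) lower, beside 26.8% and 17.3% of all genes tested.

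**Figure D1:**
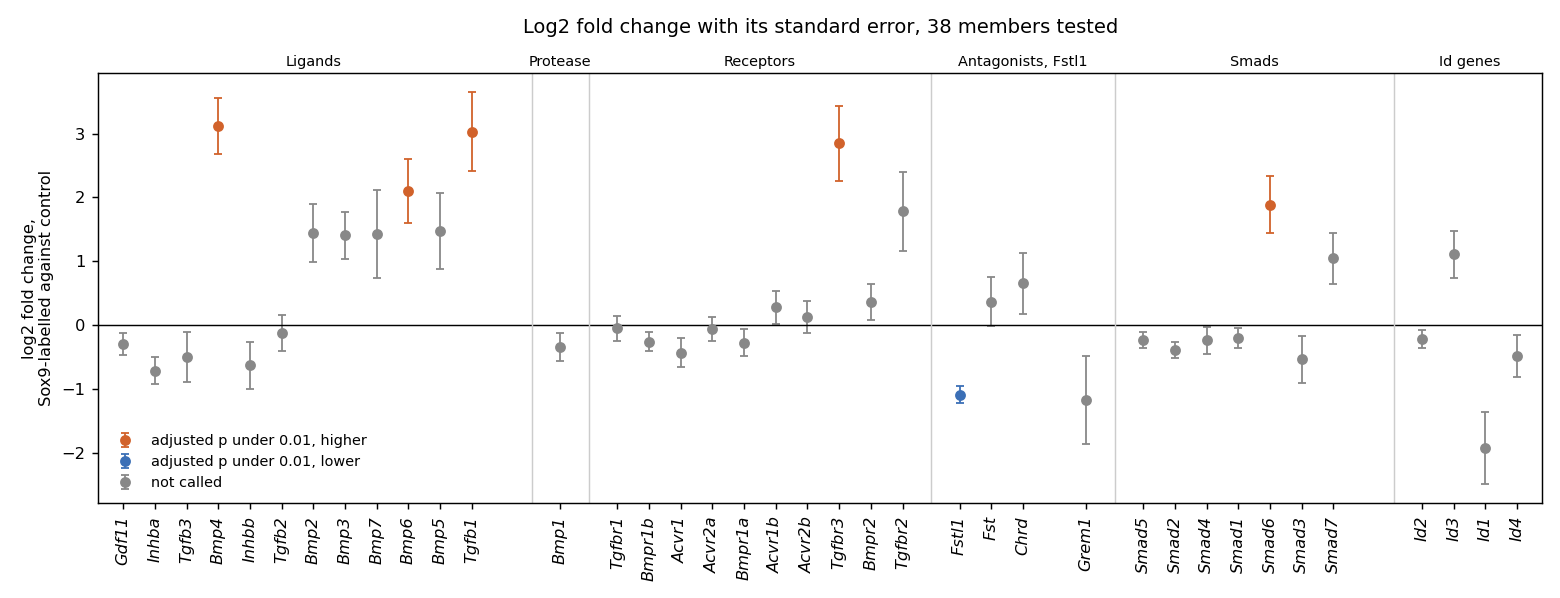
The log2 fold change (Sox9-labelled against control, vertical axis) of the 38 members tested is plotted by role, with bars of 1 standard error from edgeR's fit on 3 control and 4 Sox9-labelled libraries. Orange points (*Bmp4*, *Bmp6*, *Tgfb1*, *Tgfbr3*, *Smad6*) rose and the blue point (*Fstl1*) fell at an adjusted p-value under 0.01, while the 32 grey points did not pass this threshold.

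For 8 of the 38 members tested, every Sox9-labelled library had a higher CPM than every control library, a share of 21.1% against 22.9% of all genes tested. For 5 members, or 13.2%, every Sox9-labelled library was lower, against 16.4% of all genes tested. Both shares of the members were near those of all genes tested.

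The genes that rose were of low level and the gene that fell was abundant, and the same order was seen over all genes. The lowest class, with an average log2 CPM below 1, held 3275 genes with a median log2 fold change of 1.55, of which 20.6% rose, and 2 of the 6 members in this class (*Bmp6* and *Tgfb1*) rose. From 1 to 3, 4309 genes had a median of 0.62 and 22.8% of them rose, and here 3 of 14 members (*Bmp4*, *Tgfbr3* and *Smad6*) rose. No member rose among the 11 from 3 to 5 or the 7 at 5 and above, classes in which 4.40% and 0.726% of all genes rose. In the highest class the median of all genes was -0.24 and 6.99% fell, *Fstl1* among them. The part of expression level in the rises was not tested. The filter on low counts asked for 0.956 CPM by library totals in at least 3 libraries. *Bmp6* and *Tgfb1*, and *Bmp5* and *Tgfbr2*, which were not called, reached it in no control library and so entered the test only through the group in which they were higher. Over all genes tested, 2169 had entered in this way, of which 43.2% rose, against 6.44% of the other 14353. Their calls, and the counts of genes that rose which include them, are therefore given as a description. Among the other 34 members tested, 3 rose (8.82%), of which *Bmp4* and *Tgfbr3* reached the level in 1 control library and *Smad6* in 2. The filter asked for 3 libraries, so none of these 3 members would have passed it on the controls alone. Their calls, and the share of 8.82%, are likewise a description.

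**Figure D2:**
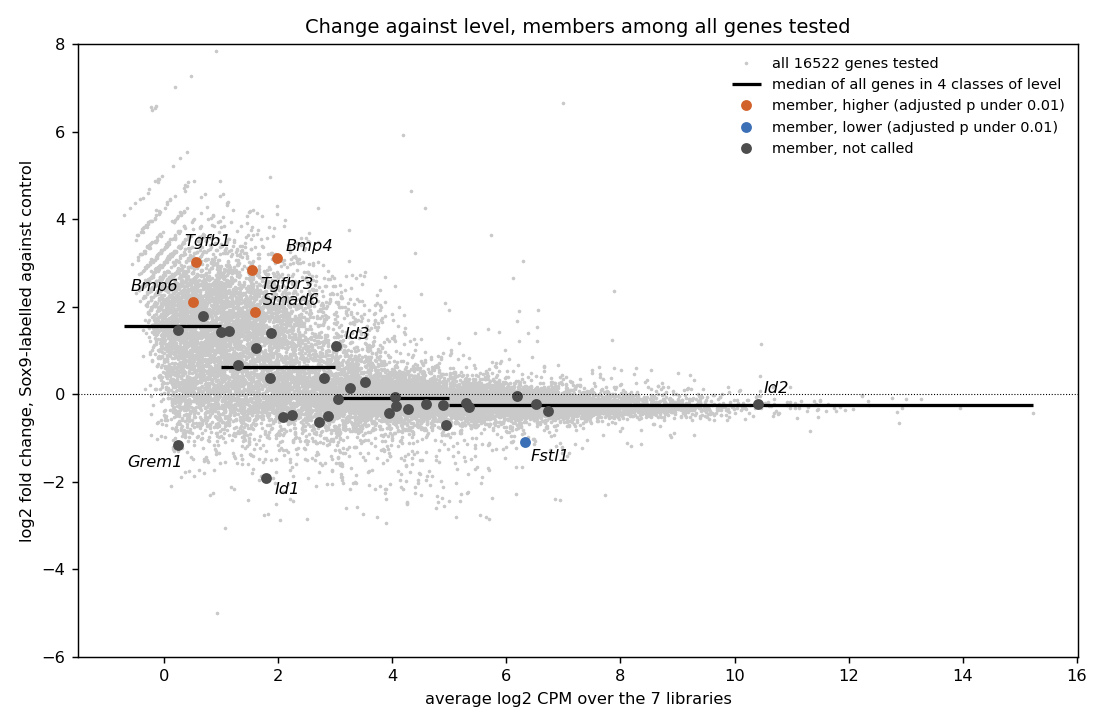
The log2 fold change (Sox9-labelled against control, vertical axis) is plotted against the average log2 CPM over the 7 libraries, with the 16522 genes tested in grey, the members as large points and black lines for the median of all genes in 4 classes of level. The medians run from 1.55 in the lowest class to -0.24 in the highest, the 5 members that rose (orange) lie below an average log2 CPM of 3, and 1 gene lies outside the vertical axis.

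The regions before *Bmp4*, *Tgfb1* and *Smad6* are shown because these members rose together, and that before *Id4* because Id genes are textbook targets of BMP Smads. The windows are the 250 bases before a RefSeq gene start on GRCm38.p6, 5′ to 3′ on the gene's strand, for those of the called members and Id genes whose window holds no base of an annotated exon. They are chr14:46390670-46390919 (minus strand) for *Bmp4*, chr7:25686752-25687001 (plus strand) for *Tgfb1*, chr9:64022060-64022309 (minus strand) for *Smad6* and chr13:48260866-48261115 (plus strand) for *Id4*, whose RefSeq start lies 112 bases before the annotated one. Capitals mark matches to GGCGCC, a GC-rich motif of BMP Smads, to CAGAC or its reverse complement GTCTG, the Smad box, and to ACAAT or its reverse complement ATTGT, the core of SOX motifs.
Bmp4: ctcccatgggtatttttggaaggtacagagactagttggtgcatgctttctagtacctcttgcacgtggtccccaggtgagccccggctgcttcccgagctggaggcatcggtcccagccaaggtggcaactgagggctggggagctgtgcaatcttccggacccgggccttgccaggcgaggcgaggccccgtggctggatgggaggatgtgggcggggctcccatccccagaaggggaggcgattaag
Tgfb1: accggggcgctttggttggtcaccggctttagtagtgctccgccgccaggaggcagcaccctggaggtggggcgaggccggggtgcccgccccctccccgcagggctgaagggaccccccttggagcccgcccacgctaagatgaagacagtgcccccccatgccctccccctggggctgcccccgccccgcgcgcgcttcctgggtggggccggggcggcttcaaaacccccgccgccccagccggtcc
Smad6: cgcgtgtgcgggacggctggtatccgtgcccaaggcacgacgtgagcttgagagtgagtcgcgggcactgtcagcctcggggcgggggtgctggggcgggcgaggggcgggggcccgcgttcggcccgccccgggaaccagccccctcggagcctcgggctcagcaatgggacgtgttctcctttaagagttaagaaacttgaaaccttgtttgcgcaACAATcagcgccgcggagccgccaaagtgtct
Id4: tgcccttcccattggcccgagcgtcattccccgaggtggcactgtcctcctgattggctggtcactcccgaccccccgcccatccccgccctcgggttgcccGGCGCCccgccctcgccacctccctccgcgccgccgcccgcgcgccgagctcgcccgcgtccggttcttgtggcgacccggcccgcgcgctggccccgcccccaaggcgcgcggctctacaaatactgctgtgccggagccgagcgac
The *Id4* window holds 1 GGCGCC and the *Smad6* window 1 ACAAT, whereas the *Bmp4* and *Tgfb1* windows hold none of these motifs. Windows of the same length were listed for 29 of the 41 members, the one nearest the annotated start being used, and for neither *Tgfbr3* nor *Id1*. Of these 29, 8 held GGCGCC (27.6%, against 9.59% of all 32817 windows), 10 held CAGAC or GTCTG (34.5% against 42.2%) and 4 held ACAAT or ATTGT (13.8% against 27.7%). The windows of all genes include alternative starts, whereas each member has 1 window. The 2 sets were not matched for GC content either, so these shares are not like for like. GGCGCC was present upstream of *Id2* and *Id4* and absent upstream of *Id3*, which held 2 matches to the Smad box. These matches describe letters in a window, not binding.

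The ligand genes split by level. Of the 12 tested, 3 rose (25%) and none fell, beside 11.3% and 3.43% of all genes tested, and their median log2 fold change was 1.42, values that include *Bmp5*, *Bmp6* and *Tgfb1*, which entered the test through the Sox9-labelled libraries alone. Among all genes of the same low level as those that rose, 20.6% (below an average log2 CPM of 1, *Bmp6* and *Tgfb1*) and 22.8% (from 1 to 3, *Bmp4*) rose. *Bmp4*, a BMP of the dorsal telencephalic midline (ENSMUSG00000021835, GRCm38 chr14:46383520-46390669), had 5, 7 and 11 counts in Control 1, 2 and 4 and 41, 49, 56 and 45 counts in Sox9 1 to 4. Every Sox9-labelled library lay well above every control. Its mean level was 0.735 ± 0.339 CPM (SD, n = 3) in the controls and 6.49 ± 2.08 CPM (SD, n = 4) in the Sox9-labelled libraries, a log2 fold change of 3.11 ± 0.44 (SE, adjusted p = 0.000337, edgeR). This call held in each of the 17 other settings in which *Bmp4* was tested, with log2 fold changes from 2.07 to 3.54.

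*Tgfb1* (ENSMUSG00000002603, chr7:25687002-25705077), the founding ligand of the TGF-beta branch, was counted 3, 3 and 2 times in the controls and 27, 20, 18 and 4 times in Sox9 1 to 4. The groups did not overlap in CPM, but Sox9 4, the library with the fewest reads, was close to the controls. Sox9 1 to 3 alone brought the gene into the test, and without any 1 of them it was not tested. Given the few control counts, the ratio of pooled counts per normalised library size was 8.69, with an exact 95% counting interval from 4.17 to 20.9, and the adjusted p-value was 0.00306. *Bmp6* (ENSMUSG00000039004, chr13:38345107-38500302), another BMP that signals through the same Smads as *Bmp4*, had 5, 5 and 4 counts in the controls and 20, 16, 16 and 8 in the Sox9-labelled libraries. The Sox9-labelled libraries were again all higher, with a log2 fold change of 2.10 ± 0.50 (SE, adjusted p = 0.00695).

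Both of these calls were close to the threshold. With any control library left out, the adjusted p-value was 0.0103 to 0.0126 for *Tgfb1* and 0.0234 to 0.0299 for *Bmp6*, and without Sox9 1 or Sox9 3 it was 0.0181 and 0.0123 for *Bmp6*, while *Tgfb1* was then not tested. With cyclic loess scaling and limma-trend, which differ from the edgeR fit in both the scaling and the model, the log2 fold changes were 0.74 for *Tgfb1* (adjusted p = 0.316, limma) and 0.37 for *Bmp6* (adjusted p = 0.563). With no filter, edgeR's adjusted p-values were 0.000252 and 0.0103.

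*Bmp2* and *Bmp3* did not pass the threshold although their groups were separated. *Bmp2*, a close relative of *Bmp4*, had 6, 14 and 13 counts in the controls and 16, 37, 21 and 16 in the Sox9-labelled libraries (log2 fold change 1.44 ± 0.45 SE, adjusted p = 0.0245). *Bmp3*, an atypical BMP that opposes the signal of others, had 28, 15 and 15 counts against 42, 51, 37 and 23 (log2 fold change 1.41 ± 0.37 SE, adjusted p = 0.0117). In CPM all 4 Sox9-labelled libraries were higher than all 3 controls for both genes. *Bmp3* passed the threshold without Control 1 (adjusted p = 0.00916), with library totals in place of TMM (0.00578) and with DESeq2 (0.00597).

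*Bmp5* and *Bmp7*, which can pair with *Bmp2* or *Bmp4* in heterodimers, overlapped between the groups. *Bmp7* ranged from 0.261 to 1.53 CPM in the controls and from 0.567 to 5.48 CPM in the Sox9-labelled libraries, where Sox9 3 was the highest (log2 fold change 1.43, adjusted p = 0.125). Without Sox9 3 the log2 fold change of *Bmp7* was 0.68 (adjusted p = 0.508). *Bmp5* ranged from 0.348 to 0.814 CPM and from 0.567 to 2.20 CPM (log2 fold change 1.47, adjusted p = 0.0682). Of the exonic length of *Bmp5*, 46.7% is shared with the antisense gene *Gm26903*, and as the kit does not mark strand, reads of the pair cannot be told apart there. For *Bmp4* and *Bmp6* such overlaps cover 4.0% and 5.7% of the exonic length. *Gdf10*, a BMP3-like ligand, had 0, 2 and 2 counts in the controls and 3, 2, 1 and 1 in the Sox9-labelled libraries and was removed by the filter on low counts. Its 0 in Control 1 allows up to 0.287 CPM, and an exact permutation test of log2(CPM + 1) gave p = 0.343 (two-sided, 0.514 adjusted over the 3 members that the filter removed).

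Per length, *Gdf11* and *Inhba* were the most abundant ligand genes, and neither rose. *Gdf11*, an activin-like ligand known from the olfactory epithelium and retina as a brake on neurogenesis, had the highest level per length of all ligands, 9.98 CPM per kilobase. It had 436, 623 and 395 counts in the controls and 265, 462, 344 and 139 in the Sox9-labelled libraries, with overlapping groups (log2 fold change -0.29, adjusted p = 0.198). *Inhba*, which encodes the subunit of activin A, had 470, 430 and 342 counts against 105, 320, 233 and 116, a mean of 39.0 ± 5.27 CPM (SD, n = 3) against 23.8 ± 6.70 CPM (SD, n = 4). All 4 Sox9-labelled libraries were lower, but the log2 fold change of -0.71 ± 0.21 (SE) did not pass the threshold (adjusted p = 0.0206). With DESeq2, or without the filter on low counts, it did (adjusted p = 0.0047 and 0.000494).

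*Tgfb2*, *Tgfb3* and *Inhbb* overlapped between the groups. *Tgfb3*, a TGF-beta known for its role in palate fusion, had 59, 139 and 76 counts in the controls and 30, 109, 27 and 31 in the Sox9-labelled libraries (log2 fold change -0.50, adjusted p = 0.345). Control 2 and Sox9 2 were the highest of their groups. *Tgfb2*, the third ligand by mean CPM, had 78, 96 and 94 counts against 44, 63, 100 and 38, with the highest and the lowest CPM both in the Sox9-labelled group (log2 fold change -0.12, adjusted p = 0.775). *Inhbb* had a log2 fold change of -0.63 (adjusted p = 0.208). *Bmp1*, a metalloprotease that processes procollagen and cleaves the antagonist chordin, is a BMP in name only. Its counts were 204, 288 and 204 in the controls and 139, 158, 112 and 110 in the Sox9-labelled libraries, with overlapping groups (log2 fold change -0.34, adjusted p = 0.246).

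**Figure D3:**
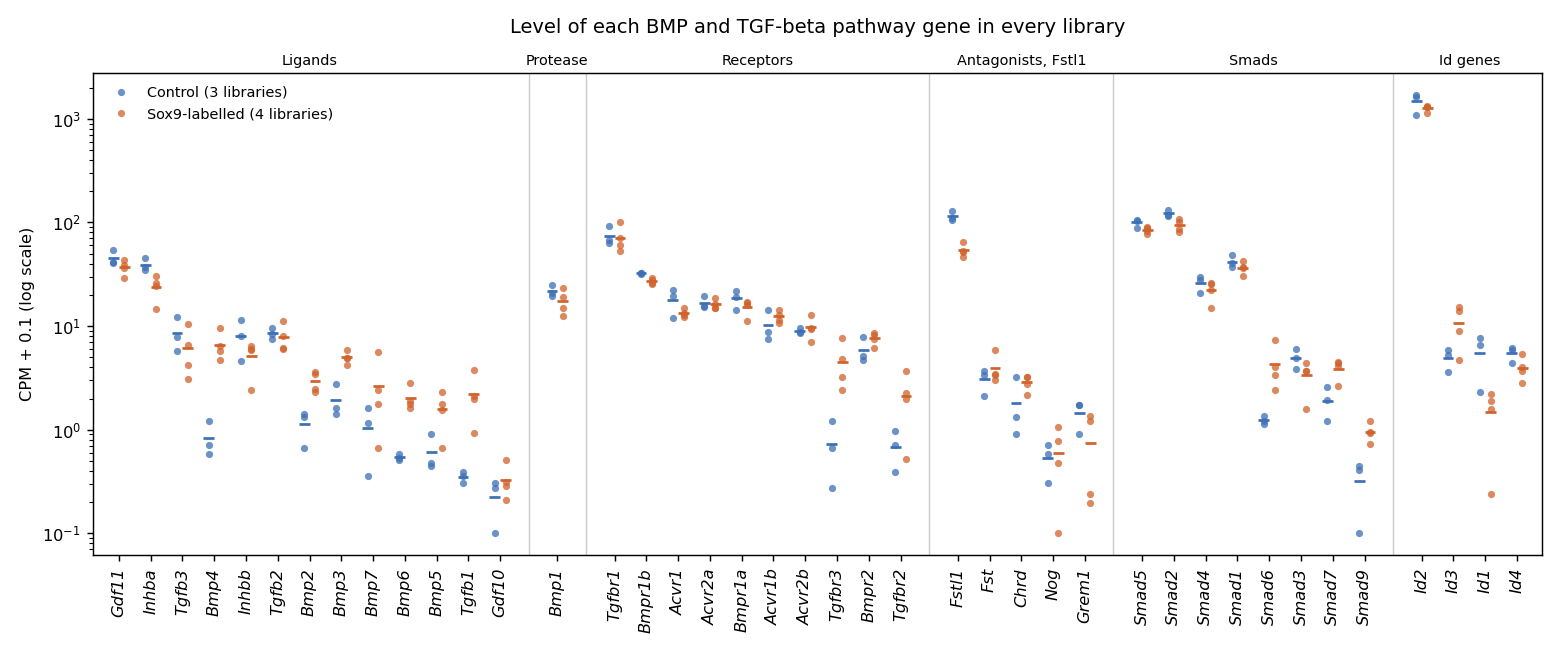
The level of each of the 41 members is plotted for every library as CPM + 0.1 on a log scale, by role, with control libraries in blue, Sox9-labelled libraries in orange and a bar at each group's mean. *Bmp4* lies between 4.63 and 9.44 CPM in the Sox9-labelled libraries, all above the control range of 0.478 to 1.12 CPM, and *Id2* is the most abundant member in both groups.

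Among the receptors, only the co-receptor gene *Tgfbr3* passed the threshold of the 10 tested (10%, beside 11.3% of all genes that rose and 3.43% that fell), and the median log2 fold change was 0.042. *Tgfbr3* (ENSMUSG00000029287, chr5:107106570-107289629) encodes betaglycan, which presents TGF-beta 2 to the signalling receptors. It had 6, 2 and 11 counts in the controls and 34, 33, 67 and 11 in the Sox9-labelled libraries, 0.622 ± 0.474 CPM (SD, n = 3) against 4.40 ± 2.28 CPM (SD, n = 4). The lowest Sox9-labelled library, Sox9 4 at 2.31 CPM, was above the highest control, Control 4 at 1.12 CPM. The log2 fold change was 2.84 ± 0.58 (SE, adjusted p = 0.00313). Without Control 2 or without Sox9 3 the adjusted p-value was 0.0113 or 0.0120, without Control 4 the log2 fold change was 3.58, and with cyclic loess and limma-trend it was 1.505 (adjusted p = 0.0488).

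The signalling receptors themselves were expressed in both groups at overlapping levels, with *Bmpr1b* as the exception. *Tgfbr1*, the type I receptor of TGF-beta, was the receptor with the highest level per length (11.1 CPM per kilobase), with 961, 774 and 619 counts in the controls and 382, 744, 910 and 291 in the Sox9-labelled libraries. Its highest and lowest CPM were both in the Sox9-labelled group, and its log2 fold change was -0.048 ± 0.20 (SE, adjusted p = 0.876). *Tgfbr2*, the type II receptor that must pair with it, was far lower at 0.172 CPM per kilobase. *Tgfbr2* had 3, 10 and 6 counts against 26, 23, 17 and 2, with Sox9 4 inside the control range and a log2 fold change of 1.78 (adjusted p = 0.0384).

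*Bmpr1b*, a type I receptor of BMPs, had 334, 369 and 321 counts in the controls and 190, 270, 259 and 131 in the Sox9-labelled libraries. The control libraries were nearly equal (32.2 ± 0.387 CPM, SD, n = 3) and all 4 Sox9-labelled libraries were lower (27.0 ± 1.53 CPM, SD, n = 4), but the log2 fold change of -0.25 ± 0.15 (SE) did not pass the threshold (adjusted p = 0.199). *Bmpr1a*, the other type I receptor of this kind and the third receptor by mean CPM, had 150, 252 and 187 counts in the controls and 120, 179, 143 and 53 in the Sox9-labelled libraries, with overlapping groups (log2 fold change -0.27, adjusted p = 0.346). Per length, *Acvr1*, a type I receptor of BMPs known as ALK2, was the third at 3.14 CPM per kilobase, with a control range of 11.8 to 21.97 CPM and a Sox9-labelled range of 12.1 to 14.9 CPM. The log2 fold changes of *Bmpr1a*, *Bmpr2*, *Acvr1*, *Acvr1b*, *Acvr2a* and *Acvr2b* ranged from -0.43 to 0.37 (adjusted p from 0.162 to 0.844). The type II receptor *Bmpr2* was at 0.377 CPM per kilobase, under each of the type I receptors *Bmpr1a* and *Bmpr1b* (2.60 and 4.90).

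Of the 4 antagonist genes tested, *Fstl1* fell and none rose, too few to set against the 3.43% and 11.3% of all genes that did. *Fstl1* (ENSMUSG00000022816, chr16:37776873-37836514) is known to oppose Bmp4 in the lung, and among the members only *Id2* had a higher level per length. Its counts were 1101, 1477 and 1094 in the controls and 473, 562, 465 and 222 in the Sox9-labelled libraries. The groups were far apart, with the lowest control at 105 CPM and the highest Sox9-labelled library, Sox9 1, at 65.0 CPM. The mean was 115 ± 12.0 CPM (SD, n = 3) against 54.2 ± 7.76 CPM (SD, n = 4), a 2.12-fold lower level (log2 fold change -1.08 ± 0.14 SE, adjusted p = 0.000179). The call held in all 18 other settings, with log2 fold changes from -1.18 to -0.85.

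The antagonists that bind ligands directly were of low level. *Fst*, or follistatin, which binds activins, had 21, 38 and 35 counts in the controls and 42, 35, 26 and 16 in the Sox9-labelled libraries (log2 fold change 0.37, adjusted p = 0.48). *Chrd*, or chordin, an antagonist of BMPs and a substrate of the Bmp1 protease, had 33, 14 and 8 counts against 23, 22, 24 and 15 (log2 fold change 0.66, adjusted p = 0.306, and 1.39 without Control 1, adjusted p = 0.0538). Both overlapped between the groups. *Nog*, or noggin, had 5, 7 and 2 counts in the controls and 7, 4, 6 and 0 in the Sox9-labelled libraries and was removed by the filter (exact permutation test, p = 0.943, two-sided). The 0 in Sox9 4 allows up to 0.629 CPM, above the control range of 0.203 to 0.608 CPM. *Grem1*, or gremlin, which binds BMP2 and BMP4, had 17, 19 and 8 counts in the controls and 1, 1, 10 and 6 in the Sox9-labelled libraries. Sox9 1 and Sox9 2 were far below the controls while Sox9 3 and Sox9 4 lay within them (log2 fold change -1.17 ± 0.69 SE, adjusted p = 0.207).

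Among the Smads, the inhibitory *Smad6* rose and the receptor-regulated Smads did not pass the threshold. *Smad6* (ENSMUSG00000036867, chr9:63953076-64022059), an inhibitor of BMP signalling whose own gene is a known BMP target, had 13, 12 and 11 counts in the controls and 53, 35, 35 and 11 in the Sox9-labelled libraries. The control libraries were close together at 1.13 ± 0.101 CPM (SD, n = 3). All Sox9-labelled libraries were higher, from 2.31 CPM in Sox9 4 to 7.28 CPM in Sox9 1 (log2 fold change 1.89 ± 0.45 SE, adjusted p = 0.00703). The adjusted p-value was 0.0178 to 0.0242 with any control library left out, 0.0244 without Sox9 1 and 0.0159 without Sox9 3. With cyclic loess and limma-trend the log2 fold change was 0.78 (adjusted p = 0.197).

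*Smad7*, the inhibitor shared by the TGF-beta and BMP branches, had 26, 21 and 11 counts in the controls and 31, 27, 39 and 19 in the Sox9-labelled libraries. In CPM the Sox9-labelled libraries were all higher, narrowly so between Control 1 at 2.48 and Sox9 2 at 2.55 CPM, and the log2 fold change of 1.05 ± 0.40 (SE) did not pass the threshold (adjusted p = 0.0573). *Smad9*, a receptor-regulated Smad of the BMP branch, was removed by the filter with 0, 4 and 3 counts against 6, 9, 10 and 3. Its Sox9-labelled libraries were all higher in CPM, and the 0 in Control 1 allows up to 0.287 CPM. The ratio of pooled counts was 4.03 (exact 95% counting interval 1.72 to 10.9). The exact permutation test gave p = 0.0286, the smallest p-value that 3 against 4 libraries allow, and 0.0857 after Benjamini-Hochberg adjustment over the 3 members that the filter removed.

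The other Smads did not pass the threshold. *Smad5*, of the BMP branch, had the highest level per length of the Smads (12.3 CPM per kilobase) with 933, 1197 and 1043 counts in the controls and 648, 961, 732 and 369 in the Sox9-labelled libraries (log2 fold change -0.23 ± 0.12 SE, adjusted p = 0.152). *Smad2*, of the TGF-beta branch, had 1212, 1515 and 1163 counts against 587, 1139, 766 and 478. All 4 Sox9-labelled libraries were lower than the controls in CPM, with a log2 fold change of -0.38 ± 0.13 (SE, adjusted p = 0.0348). *Smad1*, the third by mean CPM, had 420, 557 and 362 counts against 222, 391, 325 and 203 and overlapped between the groups (log2 fold change -0.20, adjusted p = 0.366). *Smad4*, the partner shared by both branches, and *Smad3* had log2 fold changes of -0.23 and -0.53 (adjusted p = 0.426 and 0.28). The *Smad3* level per length, 0.707 CPM per kilobase, was below that of *Smad2*, 12.0.

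The Id genes, which encode inhibitors of basic helix-loop-helix factors, differed in the direction of their values, and none of the 4 passed the threshold in the reported test, although *Id1* and *Id3* did in other settings. *Id2* was the most abundant member of all at 555 CPM per kilobase, with 17827, 12556 and 15908 counts in the controls and 9420, 13611, 11999 and 5437 in the Sox9-labelled libraries. Control 2 was the lowest of all 7 libraries in CPM, and the groups overlapped (log2 fold change -0.22 ± 0.14 SE, adjusted p = 0.25). *Id1*, the Id gene most often used as a readout of BMP signalling, had 23, 74 and 74 counts against 1, 19, 19 and 7. Every Sox9-labelled library was below every control in CPM, narrowly so between Control 1 at 2.20 and Sox9 3 at 2.12 CPM. Its log2 fold change was -1.92 ± 0.56 (SE, adjusted p = 0.0182), and it passed the threshold without Control 1 (adjusted p = 0.00707), with DESeq2 (0.00338), with no filter on low counts (4.41e-05) and with a replicate block by the descriptions (0.00997).

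The fold change of *Id3* was on the other side of 0. It had 37, 59 and 57 counts in the controls and 64, 49, 123 and 72 in the Sox9-labelled libraries, where Sox9 2 lay inside the control range and Sox9 1, Sox9 3 and Sox9 4 lay above it. The log2 fold change was 1.11 ± 0.37 (SE, adjusted p = 0.0331), without Sox9 2 it was 1.39 (adjusted p = 0.00797), and with no filter 1.014 (adjusted p = 0.00699). *Id4*, an Id gene of neural precursors, had 45, 67 and 59 counts against 38, 29, 35 and 17 and overlapped between the groups (log2 fold change -0.48 ± 0.32 SE, adjusted p = 0.269). The window before *Id4* shown above holds a GGCGCC, while the gene did not pass the threshold.

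A wider list of 82 pathway genes outside the members gave 51 genes that passed the filter, of which 10 rose (19.6%) and 1 fell (1.96%), beside 11.3% and 3.43% of all genes tested. Their median log2 fold change was 0.11. Of the 10, *Acvrl1*, *Eng*, *Tll2*, *Ltbp2*, *Msx1* and *Gata2* reached the level of the filter in no control library and entered the test only through the Sox9-labelled libraries, so their calls are given as a description. Among the 43 wider pathway genes that reached it in a control, 4 rose (9.3%), beside 6.44% of all such genes. Of these, *Bambi* reached it in 1 control library and would not have passed on the controls alone. Among the receptors and co-receptors, *Acvrl1* (ALK1), *Eng* (endoglin), both known from endothelial cells, and *Bambi*, a decoy receptor, rose. These were 3 of the 7 tested (42.9%), beside 11.3% of all genes tested. *Bambi* had 8, 10 and 13 counts in the controls and 21, 56, 42 and 17 in the Sox9-labelled libraries (log2 fold change 2.07 ± 0.42 SE, adjusted p = 0.00306). *Eng*, with 1, 3 and 1 counts against 15, 22, 19 and 2, had a ratio of pooled counts of 11.7 (exact 95% counting interval 4.73 to 37.3). The groups of these 3 genes did not overlap in CPM. The adjusted p-value of *Bambi* was 0.0125 to 0.0136 without Control 1 or 2, that of *Eng* 0.0139 to 0.0154 without Control 1 or 4, and that of *Acvrl1* 0.0109 to 0.0200 when any 1 of the 3 controls, Sox9 1 or Sox9 3 was left out. *Eng* passed the filter in only 4 of the 7 fits with 1 library left out and was not tested in the others.

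Of the extracellular regulators in the wider list, *Kcp*, a chordin-like protein that enhances BMP signals, *Fstl4*, *Crim1*, a membrane protein that tethers BMPs, and the protease gene *Tll2* rose. That was 4 of the 12 tested (33.3%), and 1 fell (8.33%), beside 11.3% and 3.43% of all genes tested. The log2 fold change was above 0 for 8 of the 12 and below 0 for 4. *Kcp* had 19, 21 and 18 counts in the controls and 140, 61, 129 and 28 in the Sox9-labelled libraries (log2 fold change 2.63 ± 0.44 SE, adjusted p = 0.00102). *Crim1*, the most abundant of them, had a smaller log2 fold change of 0.94 ± 0.22 (SE, adjusted p = 0.00687). *Bmper*, which binds BMPs outside the cell, fell by 1.07 on the log2 scale (adjusted p = 0.0068). It had 133, 320 and 180 counts in the controls and 64, 113, 74 and 46 in the Sox9-labelled libraries, without overlap in CPM. The *Bmper* call held in 6 of 18 other settings, and of the fits with 1 library left out only in that without Control 1, the adjusted p-value being 0.015 to 0.0595 in the other 6. Those of *Kcp* and *Fstl4* held in 18 and 17 of 18 settings, that of *Crim1* in 11 of 18 and that of *Tll2* in 5 of 17. Each count of settings includes the threshold of 0.05 on the same fit, which cannot lose a call. *Ltbp2*, of the latent TGF-beta binding protein family, and the BMP target genes *Gata2* and *Msx1* also rose, calls that held in 15, 12 and 10 of 17 other settings. *Ltbp2* was 1 of the 9 genes of TGF-beta latency tested (11.1%). Of the 7 target genes tested, 2 rose (28.6%) and 5 were not called, with 5 log2 fold changes above 0 and 2 below. The abundant targets *Klf10*, *Hey1* and *Tsc22d1* had log2 fold changes of -0.053, -0.082 and 0.11. None of the 14 intracellular regulators, such as *Smurf1* and *Ski*, passed the threshold in either direction in edgeR's test, and at an unadjusted p-value under 0.05 none was higher and 2 were lower. DESeq2 called none of these 14 either.

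Markers of other cell types also differed between the groups. In bulk libraries, fewer cells of a type and less RNA per cell cannot be told apart. The summed level of the 5 oligodendrocyte precursor markers was 0.61 to 1.39 CPM in the controls and 9.50 to 22.8 CPM in the Sox9-labelled libraries, and all 4 genes of this list that were tested rose. *Sox10*, which the filter removed, had 1, 3 and 1 counts in the controls and 6, 3, 0 and 3 in the Sox9-labelled libraries, with overlapping groups. All 4 (*Olig1*, *Olig2*, *Pdgfra* and *Cspg4*) reached the level of the filter in no control library and entered the test only through the Sox9-labelled group, so this count is a description. The 8 markers of cortical hem and choroid plexus, tissues known to express *Bmp4*, *Bmp6* and *Msx1*, summed to 3.04 to 5.70 CPM in the controls and 17.4 to 27.1 CPM in the Sox9-labelled libraries, and 3 of 7 tested rose (*Ttr*, *Folr1* and *Msx1*), all 3 of which had entered the test in the same way. One of these 3, *Msx1*, is also in the wider pathway list. *Ttr*, a defining choroid plexus gene, had 1, 6 and 1 counts in the controls and 54, 53, 14 and 23 in the Sox9-labelled libraries. *Otx2* did not pass the filter.

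The 8 endothelial markers summed to 6.02 to 15.8 CPM and 21.6 to 49.4 CPM, with 2 of 7 tested higher. All 7 had log2 fold changes above 0, with a median of 1.54. The defining gene *Cldn5*, which the filter removed, had 1, 7 and 1 counts in the controls and 0, 0, 15 and 0 in Sox9 1 to 4. The 8 mural and meningeal markers summed to 8.03 to 10.8 CPM and 15.5 to 29.8 CPM, with 1 of 6 tested higher and 5 of 6 log2 fold changes above 0. The pericyte gene *Pdgfrb* was the 1 below 0, with 5, 30 and 24 counts in the controls and 8, 3, 18 and 0 in Sox9 1 to 4. The 8 microglia markers (10.4 to 38.4 CPM and 13.8 to 66.8 CPM, 1 of 8 higher, *C1qa*, which also entered through the Sox9-labelled libraries alone) and the 4 erythroid markers (1.43 to 9.65 CPM and 6.32 to 47.7 CPM, 0 of 3 called) overlapped between the groups. The part of these cell types in the rises of the members was not tested.

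The summed levels of the progenitor markers were lower in the Sox9-labelled libraries. The 7 radial glia markers summed to 547.9 to 1060 CPM in the controls and 260.1 to 400.0 CPM in the Sox9-labelled libraries, with 4 of 7 lower, and the 6 basal progenitor markers to 394.0 to 483.8 CPM and 247.0 to 283.9 CPM, with 2 of 6 lower. Among the latter *Eomes* (Tbr2) had 264, 494 and 437 counts in the controls and 71, 65, 77 and 33 in the Sox9-labelled libraries, a fall by 2.25 on the log2 scale (adjusted p = 4.87e-05). The 6 astrocyte markers summed to 141 to 333 CPM and 45.9 to 74.1 CPM, with 2 of 4 higher (*Slc1a2*, and *S100b*, which entered through the Sox9-labelled libraries alone) and 2 lower (*Aldoc* and *Aldh1l1*). Most of the sum was *Aldoc*, at a mean of 230 CPM in the controls and 42.6 CPM in the Sox9-labelled libraries. *Gfap* and *Aqp4*, removed by the filter, had higher means in the Sox9-labelled libraries, 0.605 against 0.0976 CPM and 0.897 against 0.547 CPM. None of the 6 neuron markers passed the threshold in edgeR's test, where 2 were lower at an unadjusted p-value under 0.05, and 1 was lower with DESeq2. The part of these markers in the falls of *Fstl1* and *Bmper* was not tested.

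**Figure D4:**
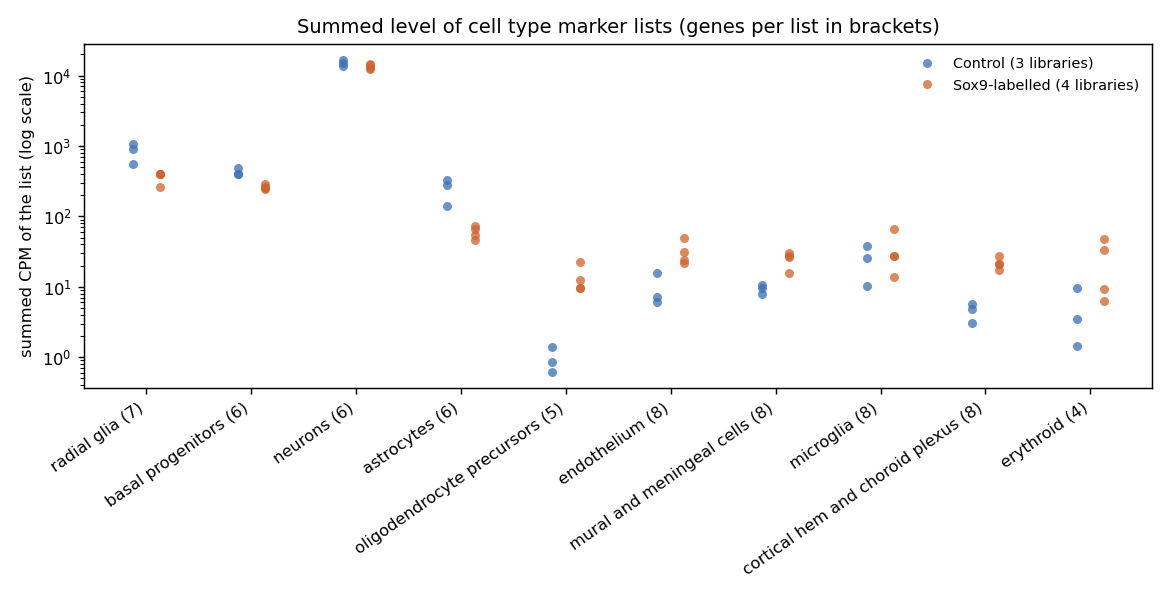
The summed CPM of each marker list (log scale, vertical axis) is plotted for every library, with the 3 control libraries in blue, the 4 Sox9-labelled libraries in orange and the number of genes per list in brackets. The oligodendrocyte precursor, endothelium, mural and meningeal, and cortical hem and choroid plexus sums are higher in every Sox9-labelled library than in any control, and the radial glia, basal progenitor and astrocyte sums are lower. The astrocyte sum is mostly *Aldoc*.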

How the data were processed

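PolyA RNA of High RFP cells from 7 pools, 3 Control and 4 Sox9, was sequenced by the authors. The reads were trimmed with cutadapt and aligned to mm10 with STAR (2.5.2b, after bcl2fastq 2.17.1.14, per the submitters' processing notes). Counts per Ensembl gene were deposited by the authors as whole numbers, not normalized. The counting program and its strand setting are not given in the sources used here. Without molecular identifiers, intervals cover counting error only. The deposited FPKM table was not used. Groups follow the sample titles, which number the controls 1, 2 and 4.

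The members and lists were chosen with earlier results of these data known. Symbols, exons and coordinates came from a GENCODE annotation of GRCm38, which held 36345 of the 38124 genes, and upstream windows from RefSeq (GRCm38.p6). Genes were filtered with filterByExpr, which kept 16522, scaled by TMM and tested with edgeR 4.0.16 (two-sided quasi-likelihood test, no covariate, R 4.3.3). P-values were adjusted over all genes tested by the Benjamini-Hochberg method, with a threshold of 0.01. Standard errors (SE) are the fold change on the log2 scale over the square root of F. CPM per kilobase divides the mean CPM by exonic length. Members removed by the filter were compared by an exact permutation test of log2(CPM + 1) in Python 3.11.15 with scipy 1.17.1. No libraries were duplicates, with a chi-square per degree of freedom of 7.53 to 20.7 within groups. The method was tested on simulated data.

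Counts per library were given for members past the threshold, for those separated in CPM with an adjusted p-value under 0.05, for those removed by the filter and for the 3 most abundant of each role by mean CPM. Other members with counts in the text were chosen after their values were seen. Alternatives were DESeq2's size factors, library totals, cyclic loess with limma 3.58.1, DESeq2 1.42.0, no filter, 10 counts in every library, protein-coding genes only, a threshold of 0.05, glmTreat against a 1.5-fold change, a replicate block by titles or descriptions, and leaving out each library.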

Additional observations from a re-analysis of the deposited data

Results flagged for a closer look

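In 3 of the 41 groups of 4 Sox9-labelled libraries, 1 library stood apart from the other 3 by Dixon's test (the gap to the nearest library over the group's range, at the 95% level), where chance gives about 1 such group in 20. *Inhbb* was at 2.33 CPM in Sox9 1 and at 5.81 to 6.33 CPM in the others (gap over range 0.870). *Fst* was at 5.77 CPM in Sox9 1 and at 2.91 to 3.36 CPM in the others (0.843). *Bmpr1a* was at 11.1 CPM in Sox9 4 and at 16.0 to 16.9 CPM in the others (0.840). None of these 3 members passed the threshold, and none did without the library that stood apart. The groups of 3 control libraries were not tested.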

How the results depend on the processing

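The calls of *Bmp4* and *Fstl1* held wherever they were tested, *Bmp6* was lost in 11 of 17 settings, *Smad6* in 8 of 18, *Tgfb1* in 5 of 14 and *Tgfbr3* in 4 of 17, always with the same direction. The settings counted include the threshold of 0.05 on the same fit, where no call can be lost. Against 5 members higher and 1 lower, cyclic loess with limma-trend called 1 higher (*Bmp4*), a minimum of 10 counts in every library 2 higher (*Bmp3* and *Smad6*, with 26 members tested, not *Bmp4*, *Bmp6*, *Tgfb1* or *Tgfbr3*), glmTreat 3 higher, and a threshold of 0.05 gave 9 higher and 4 lower. DESeq2 and the fit with no filter each gave 3 lower. Leaving out 1 library gave 1 to 5 higher (1 without Control 2 or without Sox9 3) and 1 to 2 lower. Against 10 wider pathway genes higher and 1 lower, cyclic loess, 10 counts in every library and glmTreat gave 3, 3 and 6 higher. The lower count was 0 with library totals, 10 counts and glmTreat, 2 with DESeq2 and with no filter, and 3 at 0.05. Leaving out 1 library gave 4 to 10 higher and 0 to 1 lower, with 1 only without Control 1. Over the whole table, with 1862 genes higher and 567 lower in the reported test, 10 counts in every library gave 638 and 204, glmTreat 889 and 143 and a threshold of 0.05 gave 3616 and 1787, beside the counts in the report. The cause was not tested where a setting keeps the same genes and libraries.

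The replicate numbers were no clear evidence of pairing. The deviations of same-numbered libraries had correlations of -0.075, 0.14 and -0.026 by the titles and -0.075, 0.14 and 0.0092 by the descriptions. Those of differently numbered libraries ran from -0.12 to 0.12, and only Control 2 with Sox9 2 (0.14) lay above that range. With a replicate block by the titles, which leaves Sox9 3 alone in its block, 1 member and 2 wider pathway genes rose, and by the descriptions, which leave Sox9 4 alone, 4 members rose and 2 fell. No wider pathway gene fell in either block in edgeR's test. Genes called over the whole table were 400 higher and 218 lower by the titles and 1034 and 353 by the descriptions.

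The log2 fold change of *Sox9* was -0.78 with no filter (adjusted p = 7.71e-05), passed a threshold of 0.05 at -0.68 and lay between -0.99 and -0.37 with 1 library left out (-0.99 without Control 1, adjusted p = 0.00281). Library totals alone moved the median log2 fold change of all genes to 0.23. The following members, none of them called, changed sign. With library totals the log2 fold changes were 0.12 for *Tgfb2*, 0.18 for *Acvr2a*, 0.19 for *Tgfbr1*, 0.037 for *Smad1* and 0.011 for *Id2*, each below that shift. With cyclic loess they were -0.26 for *Bmp5*, -0.083 for *Bmp7*, 0.052 for *Acvr2a*, 0.15 for *Tgfbr1*, -0.033 for *Tgfbr2*, -0.24 for *Fst*, -0.083 for *Chrd*, 0.0080 for *Smad1*, 0.0027 for *Smad5* and 0.084 for *Id2*. With 10 counts in every library they were 0.023 for *Tgfb2*, 0.082 for *Acvr2a* and 0.10 for *Tgfbr1*, and with the title block -0.043 for *Acvr2b*. With 1 library left out the ranges were -0.33 to 0.021 for *Tgfb2*, -0.10 to 0.041 for *Acvr2a*, -0.0028 to 0.31 for *Acvr2b*, -0.25 to 0.12 for *Tgfbr1* and, for the difference in log2(CPM + 1), -0.10 to 0.22 for *Nog*. The *Smad9* difference no longer reached the smallest p-value of the full design with 1 library left out, since 6 libraries cannot. At low counts such as those of *Tgfb1* and *Bmp6*, depth limits the precision.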

Other observations

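Of the 82 wider pathway genes, 31 did not pass the filter on low counts, and 30 of these (96.8%) had a higher mean CPM in the Sox9-labelled libraries, beside 12774 of all 15961 genes with a count that did not pass (80%). Among the 31, 7 (22.6%, beside 27.1% of those 15961 genes) had no count in any control library (*Bmp10*, *Bmp15*, *Gdf15*, *Nodal*, *Lefty2*, *Inhbe* and *Cer1*, noticed after their values were seen), and these had 70 counts in all in the Sox9-labelled libraries, at 0.00622 to 0.252 CPM per kilobase. A count of 0 in a library allows up to 3 counts.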
